A study of Mus musculus with 8 samples.

Results

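The genes described here are 51 genes of NF-κB signalling, toll-like receptor (TLR) signalling and the inflammasomes, chosen by name among all probes of a mouse gene expression array, and 47 of them were among the 20076 genes tested. The array compared cardiac mesenchymal stromal cells (cMSCs) from aged and young hearts. cMSCs are fibroblast-like cells of the cardiac stroma. They were sorted directly from digested hearts as cells carrying Sca-1 and PDGFRα and lacking the leukocyte marker CD45 and the endothelial marker CD31. All mice were C57Bl/6 males, and the labels name no treatment or engineered allele. The young mice were 5 months and the aged mice 20 months old. There were 4 pools per age, each of 3 mice and on an array of its own, although the title of aged replicate 4 would also fit 2 mice. The study used more than 1 mouse line without naming the one behind these arrays. Among them was a C57BL/6 reporter line with a fluorescent protein under the Cx3cr1 promoter. Young pools carry the numbers 2, 3, 4 and 5, aged pools the numbers 1, 2, 3 and 4, and values of a gene are given in that order throughout. A level is the log2 of the probe's intensity minus the log2 of the array's 75th percentile, so it can be compared between pools for 1 probe but not between genes.

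NF-κB is a family of transcription factors that are held in the cytoplasm by inhibitory IκB proteins. Ligands of TLRs, of the IL-1 receptor and of the TNF receptor activate the IκB kinase complex through adaptors such as MyD88 and the TRAF proteins, IκB is degraded, and NF-κB enters the nucleus and turns on cytokine, chemokine and survival genes together with its own inhibitors. Inflammasomes are cytosolic complexes in which a sensor of the NLR family recruits the adaptor ASC and caspase-1, which matures IL-1β and IL-18 and opens gasdermin D pores. In fibroblasts and stromal cells these pathways drive the secretion of inflammatory factors, and IL-1β is a known inducer of that program in senescent cells.

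On each array 57.8% to 63.4% of the spots exceeded background clearly, no spot was saturated, and the precision of every value is limited by 4 arrays a group. The labelled cell type was checked against its markers. For comparison, 2.37% of all genes were higher and 0.807% lower in limma at an adjusted p under 0.05. At an unadjusted p under 0.05 the shares were 8.49% and 5.66%, and 50.4% of all differences were above 0. All 12 cMSC and fibroblast markers were measured. Pdgfra was at 5.35 ± 0.13 in young and 5.15 ± 0.092 in aged cMSCs (SD, n = 4), Ly6a, which encodes Sca-1, was at 5.57 ± 0.20 and 6.24 ± 0.25, and Thy1, which encodes CD90, was lower in aged cMSCs (-0.71, adjusted p = 0.0475, and up to 0.122 without some single pools). Of the 12, 5 were lower and 1 higher at an unadjusted p under 0.05, and Col1a1 and Col1a2, the chains of type I collagen, were lower in every aged pool than in every young pool (-0.38, adjusted p = 0.0939, and -0.36, adjusted p = 0.111). Of 20 macrophage and monocyte markers 13 were tested and 0 passed in limma (0 at an unadjusted p under 0.05), but 12 of the 13 differences were above 0, with a median of 0.22 on the log2 scale. The summed level of the 13, in units of the array's 75th percentile, was 26.0 to 38.5 in young and 31.9 to 47.9 in aged pools, and 69.1% to 81.1% of it was the single probe of Itgam. Without Itgam it was 5.71 to 9.84 in young and 7.70 to 12.3 in aged pools. Such sums and shares weigh genes by the brightness of their probes and do not measure amounts of cells. The CD45 gene Ptprc was well above background on every array, and Fcgr1, Cd163, Cx3cr1, Ccr2, Laptm5, Cd86 and Cd53 were not well above it on all 4 arrays of either group. Of 10 neutrophil markers 7 were tested, and 3 were higher in aged cMSCs, namely S100a9 (4.32), which was well above background on 3 young and 4 aged arrays, Ly6g (0.74) and Camp (0.70), all calls that were lost without some single pools (adjusted p up to 0.104). The summed level of the 7 was 62.3 to 87.1 in young and 54.5 to 91.7 in aged pools, of which Csf3r made up 88.5% to 97.8%, and without Csf3r it was higher in every aged pool, at 1.91 to 2.71 in young and 3.66 to 10.5 in aged pools. Cxcr2, Ngp and Retnlg were not well above background on all 4 arrays of either group. Of 8 cardiomyocyte markers 7 were tested, all 7 differences were below 0 with a median of -0.47, and 2 passed, Tnni3 (-0.32, adjusted p = 0.0421) and Pln (-0.90, adjusted p = 0.0445, well above background on 4 young and 2 aged arrays), both calls that were lost without some single pools (adjusted p up to 0.122). S100a9 was kept through the aged group and Pln through the young group, so the size of each of these differences is not measured. The summed level of the 7 was 8.86 to 10.9 in young and 5.17 to 8.82 in aged pools. Myeloid cells also use many of the genes described below, and the part of such cells, or of cardiomyocytes, in the results was not tested. In these bulk samples a smaller share of cells of a type and less RNA per cell cannot be told apart.

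Of the 47 members tested, 5 (10.6%) were higher in aged cMSCs and 0 were lower. The 5 are the inflammasome sensor Naip2, the IκB protein Nfkbie, the protease Casp1, the lipopolysaccharide co-receptor Cd14 and the receptor Tlr2. By the same test, limma with an adjusted p under 0.05, 476 genes (2.37% of all tested) were higher and 162 (0.807%) were lower. At an unadjusted p under 0.05, 15 members (31.9%) were higher and 1 (2.13%) was lower, beside 8.49% and 5.66% of all genes. All aged pools lay above all young pools for 13 members (27.7%) and below them for 1 (2.13%), beside 6.68% and 4.07% of all genes. For each of these members the exact two-sided permutation p over the pools was 0.0286, the smallest that 4 pools against 4 allow. At the thresholds of the study, an unadjusted p under 0.01 and a log2 fold change over 0.5, 6 members (12.8%) were higher and 0 were lower, beside 3.23% and 1.27% of all genes. The difference was above 0 in 36 members and below 0 in 11, with a median of 0.19 on the log2 scale beside 0.0017 over all genes. The count of 5 was 2 to 4 when any 1 pool was left out, with Cd14 and Naip2 passing each time, and Tlr2 never. It was 2 without aged replicate 3 or without young replicate 3, 3 without aged replicate 2 or 4 or without young replicate 2, 4 or 5, and 4 without aged replicate 1. The median of the members was 0.11 without aged replicate 4. A member is given by its brightest probe unless another is named. Of 28 members with more than 1 probe kept, all probes had the same direction in 21, and of the 7 among the 28 whose groups did not overlap, every probe kept the groups apart for Cd14 and Tnfaip2, whereas another probe overlapped for Gsdmd, Irak3, Map3k8, Relb and Tnip1.

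**Figure D1:**
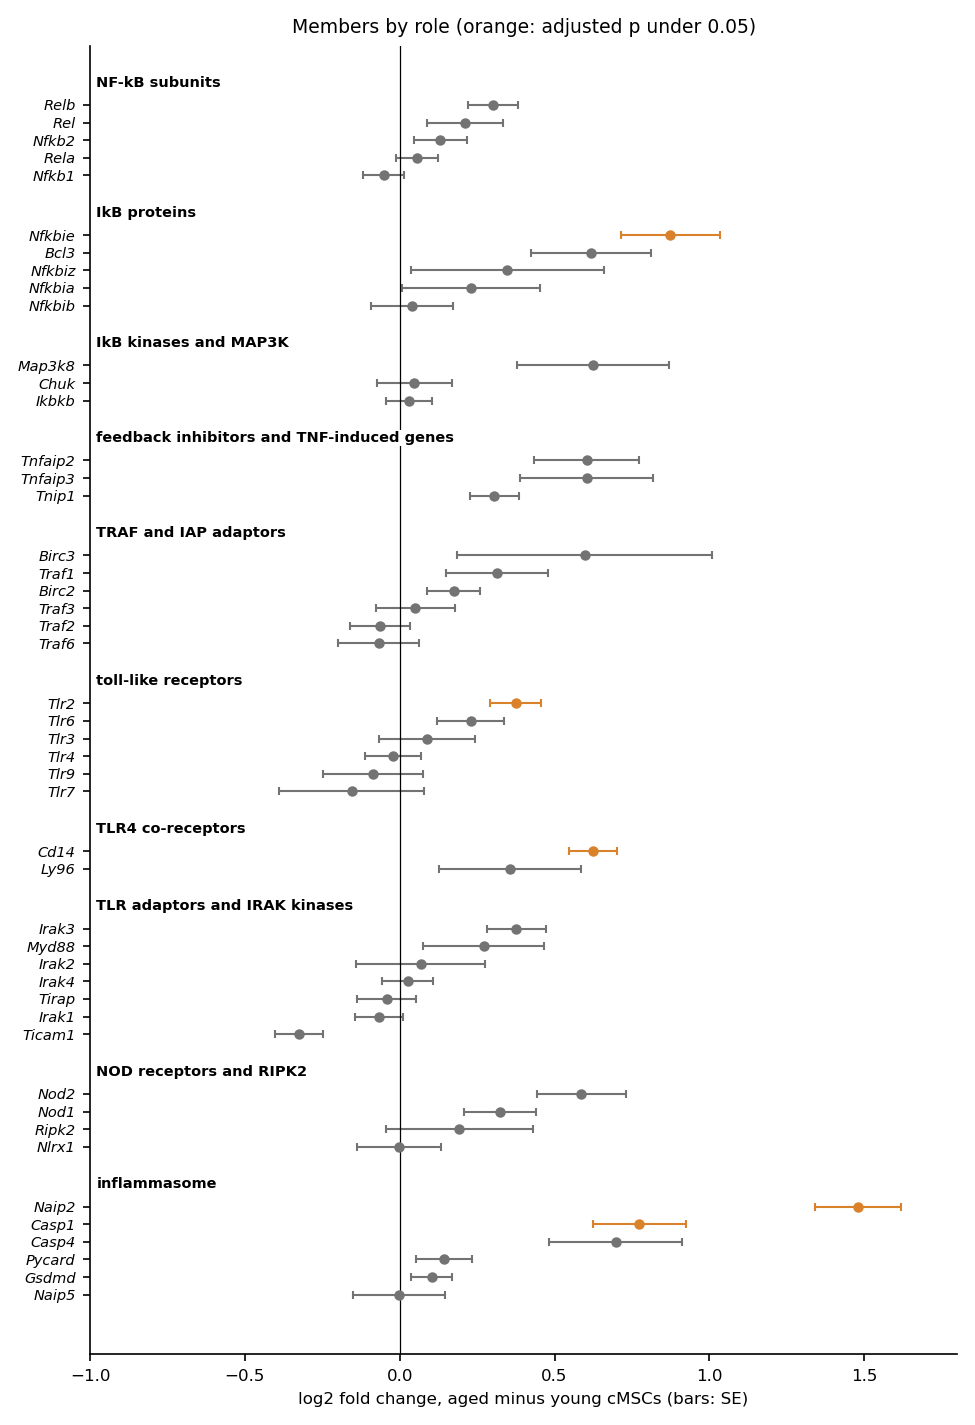
Log2 fold change, aged minus young cMSCs, of the 47 tested members grouped by role, with bars for the standard error of the limma fit and orange for an adjusted p under 0.05. Points lie to the right of 0 for 36 members, Naip2 is farthest to the right at 1.48 and Ticam1 farthest to the left at -0.33.

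The members have different roles, and the NF-κB subunits themselves come first. Of the 5 subunits 0 passed in limma (1 at an unadjusted p under 0.05, beside 8.49% of all genes higher), and the differences ran from -0.052 to 0.30. Relb encodes the subunit that pairs with p52 in the non-canonical pathway. Relb was at 1.89, 1.74, 1.96 and 1.94 in the young pools and at 2.08, 2.18, 2.24 and 2.23 in the aged pools. Each aged pool was above every young pool. For Relb the log2 fold change was 0.30 (SE 0.081, adjusted p = 0.0957). Its difference was 0.32 among arrays of the first row of the slide and 0.29 among those of the second.

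Nfkb2, which encodes p100 and its product p52, was at 2.39, 2.28, 2.39 and 2.10 in young and 2.39, 2.39, 2.46 and 2.45 in aged pools, and young replicate 5 lay below the rest (log2 fold change 0.13, adjusted p = 0.595). Nfkb1, which encodes p105 and p50, was at 3.44, 3.36, 3.32 and 3.37 in young and 3.34, 3.35, 3.28 and 3.32 in aged pools. The ranges of Nfkb1 overlapped (log2 fold change -0.052, adjusted p = 0.845). Rela, the p65 subunit of the canonical pathway, differed by 0.056 (SE 0.068) and Rel, its relative in lymphoid and myeloid cells, by 0.21 (SE 0.12), both with overlapping pools.

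The IκB proteins showed the next pattern. Nfkbie rose in aged cMSCs, as did 2.37% of all genes, and the other 4 did not pass. Nfkbie encodes IκBε, which binds RelA and c-Rel dimers and is itself induced by NF-κB. Its probe, at chr17:45700000-45700059 on mm9, read -0.29, -0.23, -0.052 and -0.53 in the young pools and 0.35, 0.47, 0.56 and 1.02 in the aged pools. All aged pools were above all young pools, and aged replicate 4 was the highest. The log2 fold change of Nfkbie was 0.87 (SE 0.16, 1.83-fold, adjusted p = 0.0244), with 1.06 and 0.69 in the first and second row of the slide. This call was lost without young replicate 2 (adjusted p = 0.0636), young replicate 3 (0.0701), young replicate 5 (0.0609) or aged replicate 3 (0.0669).

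Bcl3, a nuclear IκB protein that works with p50 and p52, read 2.67, 2.31, 2.71 and 2.22 in young and 2.70, 3.10, 3.00 and 3.57 in aged pools. Only aged replicate 1 fell within the young range (log2 fold change 0.62, adjusted p = 0.16). Nfkbiz, the inducible nuclear IκBζ, read 3.62, 3.76, 3.17 and 2.78 in young and 3.17, 3.30, 3.80 and 4.44 in aged pools. Aged replicate 4 was the highest of the 8 pools for Nfkbiz, aged replicates 1 and 2 lay within the young range, and the difference of 0.35 had an SE of 0.31 (adjusted p = 0.745). The other Nfkbiz probe kept gave 0.095, also with overlapping groups. Nfkbia, the canonical inhibitor IκBα and an early NF-κB target, read 5.48, 5.62, 5.34 and 5.12 in young and 5.25, 5.31, 5.66 and 6.26 in aged pools. It showed the same order, with aged replicate 4 high and aged replicates 1 and 2 within the young range (log2 fold change 0.23, SE 0.22, adjusted p = 0.771). Without aged replicate 4 the difference fell to 0.015 for Nfkbia and 0.094 for Nfkbiz. Nfkbib, which encodes IκBβ, differed by 0.041 (SE 0.13).

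NF-κB binds a short DNA sequence known as the κB site. The promoters of RefSeq (GRCm38.p6), 250 bases before to 50 bases after each annotated start, were searched on both strands for the κB consensus. A promoter was listed for 40 members. The consensus was present for 13 of the 40 (32.5%). It was present for 5.14% of all 27025 genes with a promoter in the table and for 6.13% of those tested. Known NF-κB targets are among the members, so a higher share is no result about these arrays. Among tested members the median log2 fold change was 0.27 for the 12 with a match and 0.11 for the 24 without. Naip2 (1.48) and Casp1 (0.77) are among the 24, and whether a match bears on the change was not tested. Of the 5 members that passed, Nfkbie and Tlr2 had a match and Casp1 and Naip2 had none in this window, and Cd14 was not searched. The sequences below run 5′ to 3′ from 250 bases before the start to 20 after it, with matches in capitals. Nfkbie and Tlr2 are shown because they rose, and Nfkbia and Tnfaip3, both textbook NF-κB targets, because they carry a match and did not pass. The position of the first base of a match, counted from the start site, is -106 in Nfkbie, -29 in Nfkbia, -125 and -12 in Tnfaip3, and -173, -172 and -8 in Tlr2, where the first pair overlap by all but 1 base. In the order of the lines, the stretches lie at chr17:45555450-45555719 (plus strand), chr3:83841589-83841858, chr12:55492628-55492897 and chr10:19015391-19015660 (minus strand for all but Nfkbie). Tnfaip3 has another annotated start whose promoter had no match. A match describes letters and was not tested for binding.
Nfkbie: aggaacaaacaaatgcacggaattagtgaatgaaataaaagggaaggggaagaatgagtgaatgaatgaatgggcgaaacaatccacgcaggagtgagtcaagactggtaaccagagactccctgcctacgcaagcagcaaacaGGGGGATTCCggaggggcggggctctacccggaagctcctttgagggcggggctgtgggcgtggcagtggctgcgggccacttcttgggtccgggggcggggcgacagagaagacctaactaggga
Tlr2: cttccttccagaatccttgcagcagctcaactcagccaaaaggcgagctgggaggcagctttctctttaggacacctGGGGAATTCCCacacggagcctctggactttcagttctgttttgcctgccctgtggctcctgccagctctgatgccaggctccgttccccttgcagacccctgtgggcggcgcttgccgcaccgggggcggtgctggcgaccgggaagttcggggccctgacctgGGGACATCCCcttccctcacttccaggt
Nfkbia: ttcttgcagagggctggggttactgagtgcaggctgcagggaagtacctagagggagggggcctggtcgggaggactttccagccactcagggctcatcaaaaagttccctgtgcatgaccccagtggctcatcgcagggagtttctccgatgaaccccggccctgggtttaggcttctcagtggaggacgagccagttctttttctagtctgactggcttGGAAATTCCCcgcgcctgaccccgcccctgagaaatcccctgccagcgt
Tnfaip3: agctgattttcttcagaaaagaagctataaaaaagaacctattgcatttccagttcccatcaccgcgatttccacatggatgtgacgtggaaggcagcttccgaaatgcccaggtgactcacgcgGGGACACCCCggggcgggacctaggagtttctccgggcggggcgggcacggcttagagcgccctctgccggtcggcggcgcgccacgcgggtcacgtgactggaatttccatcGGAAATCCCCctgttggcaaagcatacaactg

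Among the kinases, Ikbkb and Chuk, the catalytic subunits of the IκB kinase, differed by 0.029 (SE 0.074) and 0.047 (SE 0.12), each with overlapping pools. Map3k8, the TPL2 kinase that is released from p105 when NF-κB signalling is switched on, read -0.59, -0.47, -0.69 and -0.90 in young and -0.45, -0.39, -0.025 and 0.71 in aged pools. The groups did not overlap, but aged replicates 1 and 2 were close to the young range and aged replicate 4 was far above it. For Map3k8 the log2 fold change was 0.62 with an SE of 0.24 (adjusted p = 0.28), and its other probe gave 0.29 with overlapping groups.

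The 3 feedback inhibitors and TNF-induced genes were all higher on average in aged cMSCs and did not pass after adjustment (0 in limma, 3 at an unadjusted p under 0.05). At the latter threshold 8.49% of all genes were higher. Tnfaip3 encodes A20, a ubiquitin-editing enzyme that ends NF-κB signalling. It read 0.73, 0.66, 0.40 and 0.25 in the young pools and 0.72, 0.92, 1.09 and 1.72 in the aged pools. Aged replicate 1 fell just within the young range and aged replicate 4 was the highest (log2 fold change 0.60, SE 0.21, adjusted p = 0.22). Tnfaip2, a TNF-induced gene, read 3.59, 3.60, 3.57 and 3.47 in young and 3.88, 3.89, 4.20 and 4.68 in aged pools. Every aged pool lay above the young pools, which were within 0.13 of each other. Its log2 fold change was 0.60 (SE 0.17, 1.52-fold, adjusted p = 0.113), it met the thresholds of the study, and its other probe gave 0.63. Tnip1, the A20-binding inhibitor ABIN1, read 3.69, 3.65, 3.73 and 3.47 in young and 3.93, 3.99, 3.92 and 3.93 in aged pools. The aged pools of Tnip1 lay close together above the young pools (log2 fold change 0.31, SE 0.079, adjusted p = 0.0872), and Tnip1 passed with quantile normalization (adjusted p = 0.035).

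The TRAF adaptors and cellular inhibitors of apoptosis (IAP) carry the signal from TNF receptors and TLRs to the kinases (6 tested, 0 passed in limma, 0 at an unadjusted p under 0.05). Birc3, the cIAP2 ligase and an NF-κB target, read -0.82, -0.44, -1.61 and -1.09 in young and -0.89, -1.06, -0.40 and 0.79 in aged pools. Aged replicate 4 stood far above all young pools and aged replicate 3 just above them, and the difference of 0.60 had an SE of 0.41 (adjusted p = 0.632). Traf1 and Birc2 differed by 0.31 (SE 0.16) and 0.17 (SE 0.086), and Traf2, Traf3 and Traf6 by -0.068 to 0.051. All 6 had overlapping pools with the probe used. Of the other 3 Birc3 probes, 1 had every aged pool above every young pool (0.46, adjusted p = 0.266 in a fit over all probes), and 2 overlapped at 0.26 and 0.34.

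**Figure D2:**
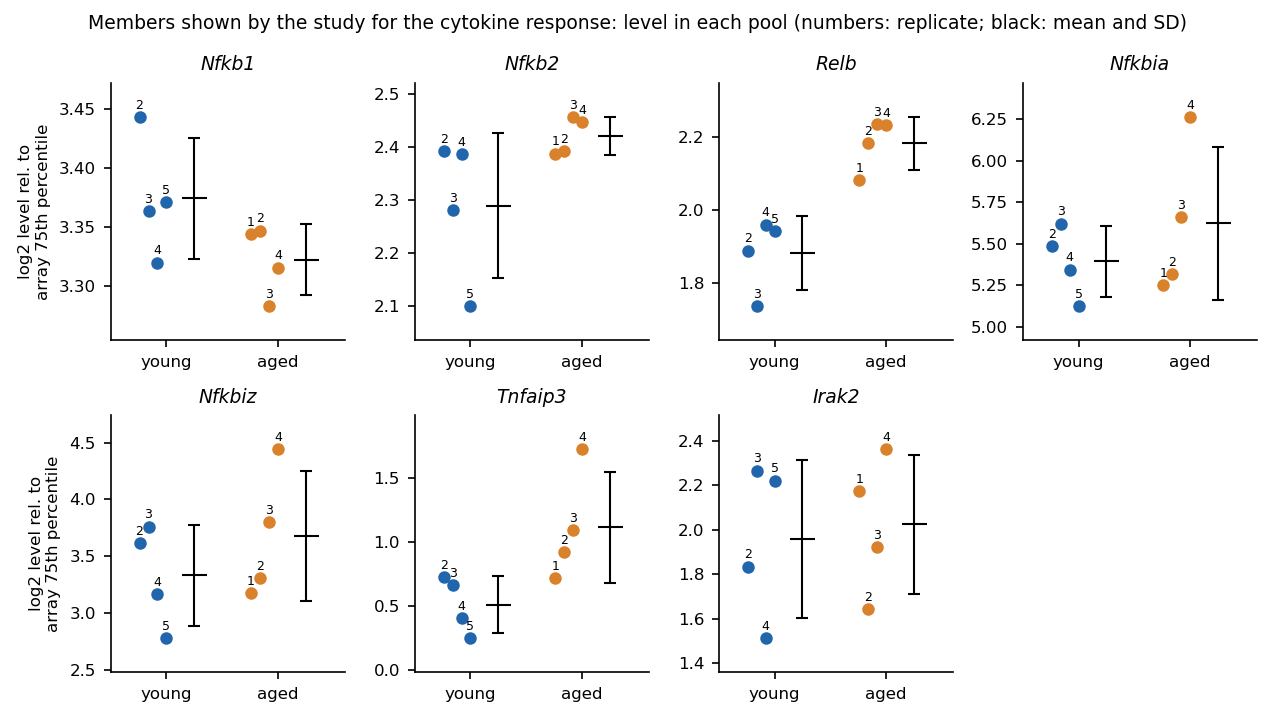
Log2 level (minus the log2 of the array's 75th percentile) of Nfkb1, Nfkb2, Relb, Nfkbia, Nfkbiz, Tnfaip3 and Irak2 in young (blue) and aged (orange) pools, with replicate numbers at the points and black bars for the mean and SD. The groups are apart for Relb only, and aged replicate 4 is the highest of the 8 pools for Nfkbia, Nfkbiz, Tnfaip3 and Irak2.

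The members Nfkb1, Nfkb2, Relb, Nfkbia, Nfkbiz, Tnfaip3 and Irak2 were picked by the study on these same arrays to show the response to cytokines, so their direction is not independent evidence. Of the 7, 0 passed in limma here, and 2, Relb and Tnfaip3, had an unadjusted p under 0.05.

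Toll-like receptors sense microbial and damage-associated ligands. Of 8 listed, 6 were tested, 1 rose and 0 fell, beside 2.37% and 0.807% of all genes. Tlr1 reached the level well above background on 0 arrays, and Tlr5 reached it on 1 young and 3 aged arrays with 1 of its 2 probes. Tlr2 recognizes lipoproteins together with Tlr1 or Tlr6. Its only probe, at chr3:83640344-83640403 on mm9, read 1.22, 1.15, 1.05 and 1.25 in the young pools and 1.43, 1.62, 1.49 and 1.63 in the aged pools. All aged pools were above all young pools. For Tlr2 the log2 fold change was 0.37 (SE 0.082, 1.3-fold, adjusted p = 0.0496), with 0.33 and 0.42 in the first and second row of the slide. The adjusted p was just under the threshold, and leaving out any 1 of the 8 pools raised it to 0.0651 to 0.122. It was also above the threshold with quantile normalization (0.0532), median scaling (0.155), the mean of probes (0.051) and no filter (0.22). The same held with a block for slide row (0.0639), pool code (0.189) or pool number (0.314). Tlr6 read -2.40, -2.62, -2.36 and -2.30 in young and -2.23, -2.03, -2.39 and -2.11 in aged pools, which overlapped in aged replicate 3 (log2 fold change 0.23, adjusted p = 0.395). The lipopolysaccharide receptor Tlr4 differed by -0.022 (SE 0.09), and the nucleic acid receptors Tlr3, Tlr7 and Tlr9 by 0.089, -0.15 and -0.087, each within the overlap of the pools.

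Cd14 and Ly96 (MD-2) encode the proteins that hand lipopolysaccharide to TLR4. Cd14 read -0.57, -0.51, -0.49 and -0.45 in the young pools and 0.093, 0.072, 0.041 and 0.27 in the aged pools. The young pools lay within 0.12 of each other, and every aged pool was above them. Cd14 had a log2 fold change of 0.62 (SE 0.077, 1.54-fold, adjusted p = 0.00446), and its other probe gave 0.63. Its call held whichever pool was left out (adjusted p = 0.00909 to 0.0202), and the difference was 0.66 in the first and 0.59 in the second row of the slide. Ly96 read 4.37, 4.75, 4.12 and 4.13 in young and 4.96, 4.18, 4.51 and 5.14 in aged pools, with overlapping groups (log2 fold change 0.36, SE 0.23, adjusted p = 0.589). The Ly96 probe used shares a run of 20 bases with 85 probes of other genes on the array, and the other Ly96 probe gave a difference of 0.21.

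**Figure D3:**
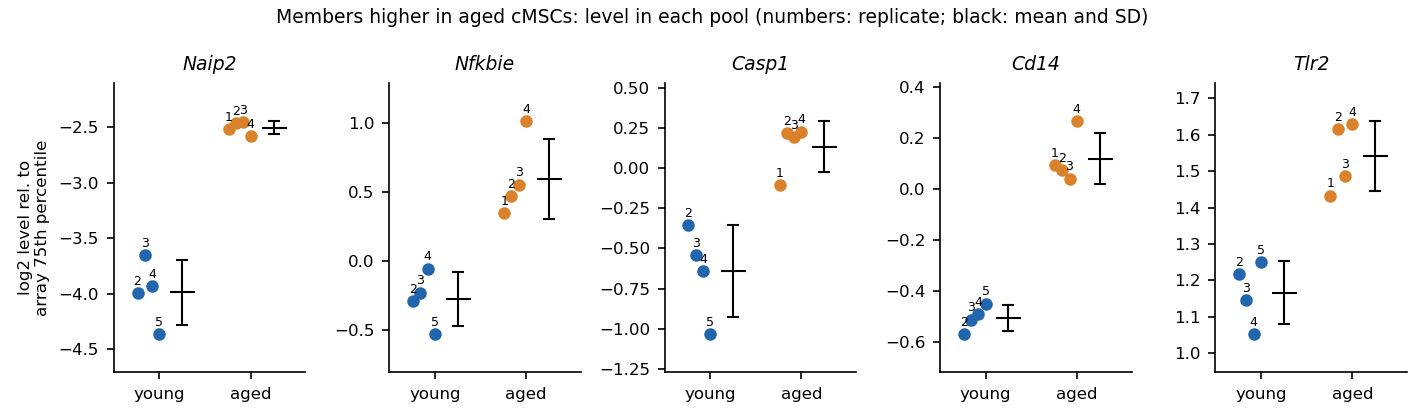
Log2 level (minus the log2 of the array's 75th percentile) of Naip2, Nfkbie, Casp1, Cd14 and Tlr2 in young (blue) and aged (orange) pools, with replicate numbers at the points and black bars for the mean and SD. In all 5 panels each aged pool lies above each young pool, and the gap is widest for Naip2.

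Downstream of the receptors lie the adaptors and IRAK kinases (7 tested, 0 passed in limma, 1 higher and 1 lower at an unadjusted p under 0.05). Of all genes 8.49% were higher and 5.66% lower at the latter threshold. Ticam1 encodes TRIF, the adaptor of TLR3 and of endosomal TLR4. Ticam1 read 0.17, 0.29, 0.32 and 0.39 in the young pools and 0.044, -0.056, -0.11 and -0.021 in the aged pools. It was the 1 member with every aged pool below every young pool, with a log2 fold change of -0.33 (SE 0.077, adjusted p = 0.0655), -0.33 in the first and -0.32 in the second row of the slide. Irak3 encodes IRAK-M, an inhibitor of MyD88 signalling. Irak3 read 1.32, 1.27, 1.21 and 1.12 in young and 1.51, 1.53, 1.55 and 1.83 in aged pools, which did not overlap (log2 fold change 0.38, SE 0.10, adjusted p = 0.0817), and its other probes gave 0.39 and 0.34. Irak2, a kinase of the MyD88 complex, read 1.83, 2.27, 1.51 and 2.22 in young and 2.17, 1.64, 1.92 and 2.36 in aged pools. The groups overlapped (log2 fold change 0.067, SE 0.21, adjusted p = 0.945). The other Irak2 probes gave 0.30 and 1.06, and neither passed in a fit over all probes. The latter probe was well above background on 1 young and 4 aged arrays, so the size of its difference is not measured. Myd88 read 2.71, 3.01, 2.78 and 2.46 in young and 2.68, 2.84, 2.98 and 3.55 in aged pools, again with aged replicate 4 the highest and the rest mixed (log2 fold change 0.27, adjusted p = 0.654). Tirap, Irak1 and Irak4 differed by -0.068 to 0.025.

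The NOD receptors sense fragments of bacterial peptidoglycan and signal to NF-κB through the kinase RIPK2 (4 tested with Nlrx1, 0 passed in limma, 2 at an unadjusted p under 0.05). Both of these were higher, beside 8.49% of all genes. Nod2 read -4.42, -3.90, -4.02 and -4.45 in the young pools and -3.78, -3.46, -3.61 and -3.59 in the aged pools. The groups did not overlap, and aged replicate 1 was nearest to the young pools. The log2 fold change of Nod2 was 0.59 (SE 0.14, 1.5-fold, adjusted p = 0.0719), which met the thresholds of the study, and fell to 0.25 with normexp background correction. Nod1 read 4.13, 3.78, 3.99 and 3.67 in young and 4.08, 4.17, 4.31 and 4.29 in aged pools, with 1 young pool inside the aged range (log2 fold change 0.32, SE 0.12, adjusted p = 0.228). Ripk2 was well above background on 3 young and 4 aged arrays, and its groups overlapped. It was kept through the aged group, so the size of its difference (0.19, SE 0.24) is not measured. Nlrx1, a mitochondrial NLR protein, differed by -0.0017 (SE 0.14).

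Of 8 inflammasome members 6 were tested, 2 rose and 0 fell, beside 2.37% and 0.807% of all genes. Naip2 had the highest fold change of all 47 members, except with normexp background correction, where Nfkbie was higher (0.79 against 0.70). It encodes an NLR protein that binds the rod protein of bacterial type III secretion systems and assembles the NLRC4 inflammasome. The Naip2 probe, at chr13:100914212-100914271 on mm9, read -3.99, -3.66, -3.93 and -4.36 in the young pools and -2.52, -2.47, -2.45 and -2.58 in the aged pools. The aged pools lay within 0.13 of each other and the lowest of them was 1.07 above the highest young pool. The log2 fold change of Naip2 was 1.48 (SE 0.14, 2.79-fold, adjusted p = 0.00129), with 1.46 and 1.50 in the first and second row of the slide and adjusted p values of 0.00159 to 0.00761 when a pool was left out. Its size differed with the processing, at 0.70 with normexp background correction (adjusted p = 0.00703) and 0.93 in the authors' log2 table (adjusted p = 0.00344). The signal of this probe was low on all arrays, and the cause of these differences was not tested.

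Naip2 belongs to a cluster of near-identical genes, so the copy behind the signal is uncertain. The accessions listed for its probe belong to Naip2 alone. Naip6, from the list of other inflammasome genes, read -5.35, -6.20, -4.80 and -7.15 in young and -4.56, -4.28, -4.06 and -4.15 in aged pools, well above background on 1 young and 4 aged arrays, so that it was kept through the aged group and the size of its difference is not measured (adjusted p = 0.105). Naip5, which senses flagellin, read 5.77, 6.01, 5.57 and 5.79 in young and 5.77, 5.42, 5.86 and 6.08 in aged pools, with no separation of the groups (log2 fold change -0.0023, SE 0.15). The Naip5 probe used shares 20 bases with 3 probes of other genes, and the other Naip5 probe, whose accessions cover Naip1, Naip5 and Naip6, exceeded background clearly on 0 arrays.

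Casp1 encodes caspase-1, the protease of the inflammasome. The Casp1 probe, at chr9:5307206-5307265 on mm9, read -0.36, -0.54, -0.64 and -1.03 in the young pools and -0.10, 0.22, 0.19 and 0.23 in the aged pools. All aged pools were above all young pools, with aged replicate 1 the lowest of the aged and young replicate 5 the lowest of the young. Casp1 had a log2 fold change of 0.77 (SE 0.15, 1.71-fold, adjusted p = 0.0316), with 0.85 and 0.70 in the first and second row of the slide. This call was lost without young replicate 3 (adjusted p = 0.073), young replicate 4 (0.0835), aged replicate 2 (0.0772), aged replicate 3 (0.093) or aged replicate 4 (0.0805). Casp4, which in mice encodes caspase-11, the sensor of cytosolic lipopolysaccharide, read 3.27, 3.14, 2.72 and 2.90 in young and 3.35, 3.46, 3.71 and 4.30 in aged pools. The groups did not overlap, but aged replicate 1 was close to young replicate 2 (log2 fold change 0.70, SE 0.21, adjusted p = 0.149).

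The remaining inflammasome members did not pass or were not tested. Pycard, the adaptor ASC, read 0.81, 0.98, 0.94 and 0.76 in young and 1.17, 1.03, 0.97 and 0.89 in aged pools, which overlapped (log2 fold change 0.14, SE 0.09). Gsdmd, the pore-forming gasdermin D, read 2.10, 2.22, 2.12 and 2.15 in young and 2.28, 2.26, 2.24 and 2.23 in aged pools, with every aged pool above the young pools by a small margin (log2 fold change 0.10, SE 0.066, adjusted p = 0.59). The sensor Nlrp3 was well above background on 1 young and 1 aged array, and Nlrc4, the partner of the NAIP proteins, on none, so neither was tested.

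**Figure D4:**
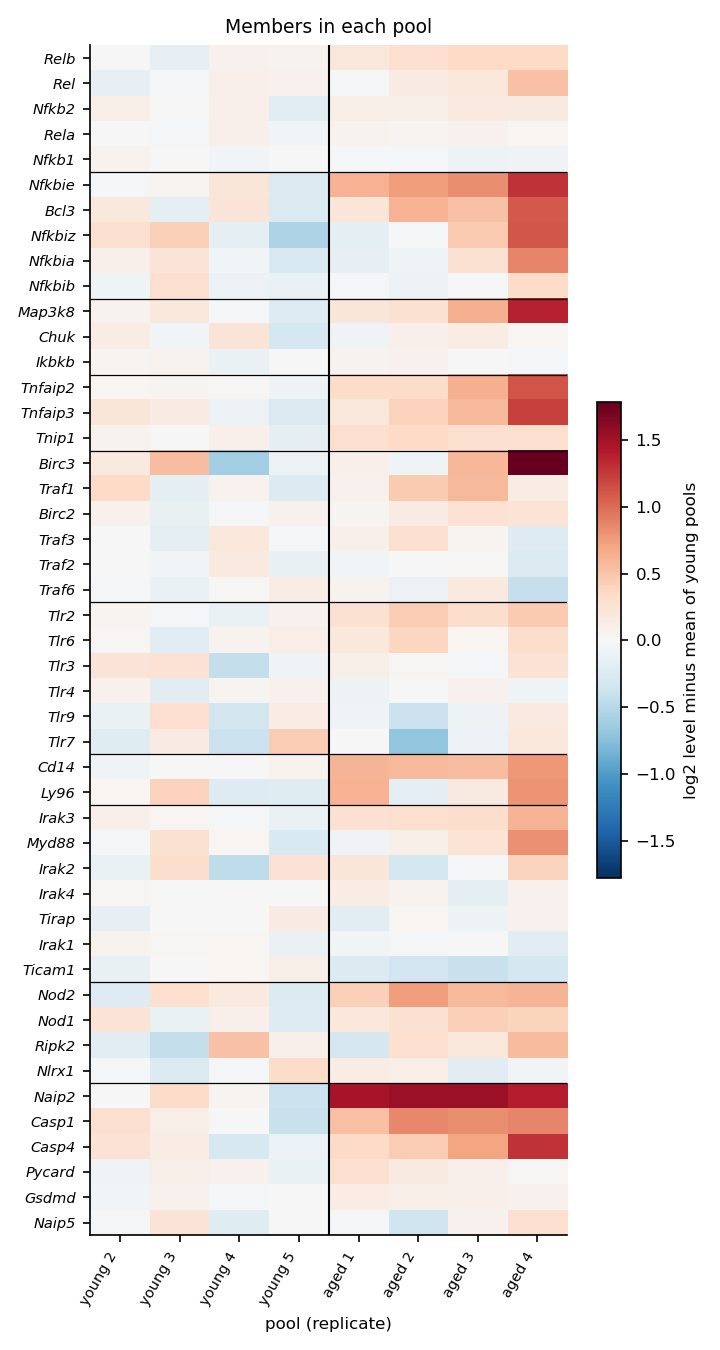
Level of the 47 tested members in each of the 8 pools, as the log2 difference from the mean of the young pools (colour scale), with members grouped by role and lines between the roles. Naip2 is high in all 4 aged pools, whereas Birc3, Map3k8, Nfkbia, Nfkbiz and Tnfaip3 are highest in aged replicate 4.

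The aged pools were not alike across the members. Aged replicate 4 had the highest level of the 4 aged pools in 24 of the 47 members (51.1%), beside 31.7% of all tested genes, and aged replicate 1 had the lowest in 23 (48.9%), beside 19.4% of all genes. Counted against the mean of the young pools, 18 members were more than 0.5 higher in aged replicate 4, and 5, 6 and 12 were in aged replicates 1, 2 and 3. Over all genes these shares were 11.3% in aged replicate 4 and 6.23%, 5.75% and 6.32% in aged replicates 1, 2 and 3. The median of the members relative to the young mean was 0.098, 0.11, 0.18 and 0.31 in aged replicates 1, 2, 3 and 4. The neutrophil markers S100a8 and S100a9 were also highest in aged replicate 4, at 0.68 and 2.36, beside -2.25 to -1.69 and -0.49 to 0.37 in the other aged pools. Whether the makeup of this pool has a part in the member values was not tested.

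Genes of the same pathways that were not members were counted from lists made by function. These lists were chosen with earlier results of these data known, so their counts are not independent evidence. Over all genes tested, 2.37% were higher and 0.807% lower by the same test, and 50.4% of differences were above 0. Among 40 other NF-κB pathway genes, which include scaffold, ubiquitin and kinase components, 37 were tested and 0 passed in limma (2 higher and 2 lower at an unadjusted p under 0.05), with a median of 0.051. The largest increases there were Zc3h12a, an RNase that degrades inflammatory transcripts (0.65, SE 0.29, adjusted p = 0.363), and Malt1, a paracaspase (0.37, SE 0.12, adjusted p = 0.158). The lowest adjusted p there was that of Traf5, a TRAF adaptor of TNF receptors, with every aged pool below every young pool (-0.33, SE 0.079, adjusted p = 0.0641). Of 24 other TLR pathway genes 20 were tested, 2 rose and 0 fell, with a median of 0.048. Tifa, an adaptor that binds TRAF6, read -0.70, -0.59, -0.73 and -0.76 in young and -0.093, 0.068, -0.29 and 0.42 in aged pools. All its aged pools were above the young pools (log2 fold change 0.72, SE 0.14, adjusted p = 0.0342). Lbp, the secreted protein that delivers lipopolysaccharide to CD14, read 2.74, 2.67, 2.76 and 2.52 in young and 3.03, 3.26, 3.03 and 3.22 in aged pools. It too was apart between the groups (log2 fold change 0.46, SE 0.092, adjusted p = 0.0341). The count of 2 was 0 without any 1 of the young pools or without aged replicate 1 or 2, and 1 without aged replicate 3 or 4.

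Of 26 other inflammasome genes 19 were tested, 4 rose and 0 fell, with a median of 0.30 and 17 differences above 0. Over all genes 2.37% rose, 0.807% fell and 50.4% of differences were above 0. Nlrc5, an NLR protein that drives MHC class I genes, read -3.47, -2.37, -2.86 and -3.75 in young and -1.56, -1.09, -1.23 and -0.71 in aged pools. Even the lowest aged pool lay above the highest young pool (log2 fold change 1.96, SE 0.30, 3.9-fold, adjusted p = 0.0118). Il18, a cytokine matured by caspase-1, read -0.99, -0.91, -0.94 and -1.06 in young and -0.24, 0.15, -0.13 and -0.21 in aged pools. The young pools lay within 0.15 of each other, well below the aged pools (log2 fold change 0.87, SE 0.10, 1.82-fold, adjusted p = 0.00331). Panx1 and P2rx7, the ATP-release channel and the ATP-gated channel that set off the NLRP3 inflammasome, rose by 0.57 (SE 0.12, adjusted p = 0.0485) and 0.48 (SE 0.10, adjusted p = 0.0338). Il1b, the other substrate of caspase-1, read -3.61, -4.57, -4.55 and -5.14 in young and -3.28, -3.20, -4.00 and -1.28 in aged pools, well above background on 3 young and 4 aged arrays. Its highest value was in aged replicate 4 and aged replicate 3 lay within the young range (adjusted p = 0.238), and Il1a was not tested. Il1b was kept through the aged group, so the size of its difference is not measured. Nlrc5 and Il18 passed whichever pool was left out. The call of Panx1 was lost without any 1 pool (adjusted p = 0.0622 to 0.133) and that of P2rx7 without any 1 pool other than young replicate 2 (0.06 to 0.107). The count of 4 was 2 without young replicate 3 or 5 or without aged replicate 2, 3 or 4. It was 3 without young replicate 2 or 4 or without aged replicate 1. Without young replicate 4 or aged replicate 1 this count includes a gene that did not pass with all pools.

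**Figure D5:**
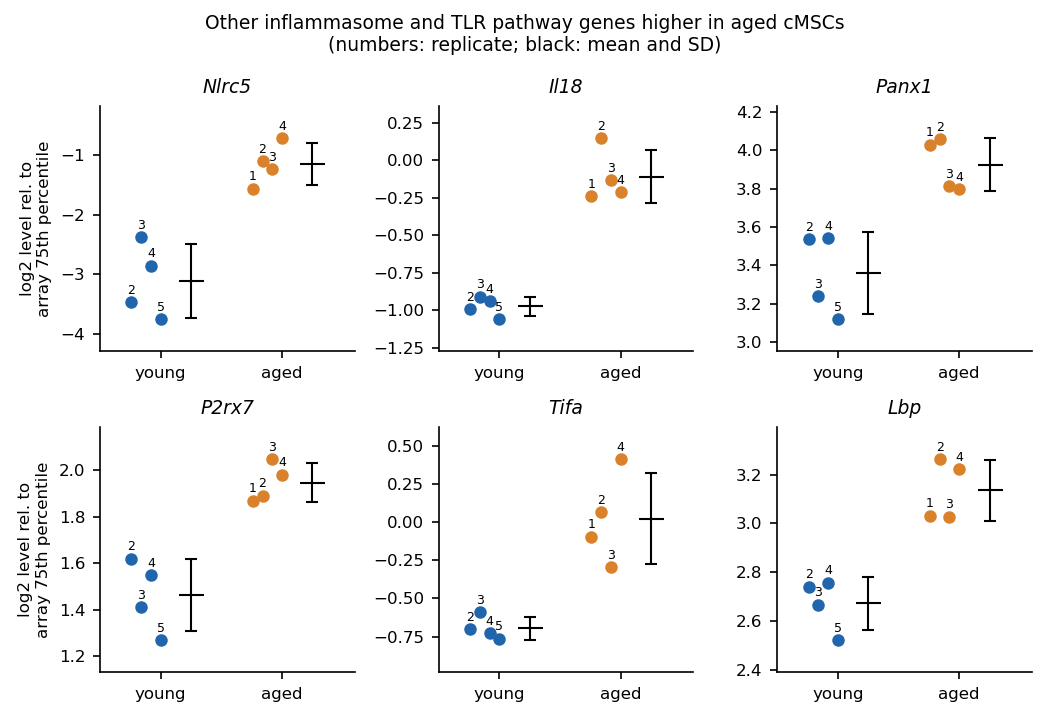
Log2 level (minus the log2 of the array's 75th percentile) of 6 pathway genes that were not members and were higher in aged cMSCs, in young (blue) and aged (orange) pools, with replicate numbers at the points and black bars for the mean and SD. Each aged pool lies above each young pool in all 6 panels.

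Targets of NF-κB were counted from a list as well, and the activity of NF-κB itself was not tested. Of 40 listed 32 were tested, 4 rose and 1 fell, with a median of 0.32 and 29 differences above 0. Over all genes 2.37% rose, 0.807% fell and 50.4% of differences were above 0. The 4 that rose were Lcn2, an iron-binding acute phase protein (3.42, SE 0.63, adjusted p = 0.0245), the neutrophil chemokine Cxcl5 (2.78, SE 0.31, adjusted p = 0.00284), the membrane-bound chemokine Cx3cl1 (1.68, SE 0.15, adjusted p = 0.000998) and the matrix protease Mmp3 (1.30, SE 0.15, adjusted p = 0.00357). Lcn2 did not pass without young replicate 3, 4 or 5 or aged replicate 3 (adjusted p = 0.0553 to 0.0759), and the other 3 passed whichever pool was left out. The list was chosen with earlier results of these data known. The study reported Lcn2, Cx3cl1 and Mmp3 as higher on these same arrays, so their direction is not independent evidence. The 1 that fell was Cd83, a surface protein of activated antigen-presenting cells (-1.29, SE 0.15, adjusted p = 0.0039). Il6 read 2.22, 2.85, 1.80 and 1.35 in young and 1.88, 2.50, 3.04 and 5.14 in aged pools. As for several members, aged replicate 4 was far above the rest and the other aged pools lay in or near the young range (log2 fold change 1.09, SE 0.65, adjusted p = 0.552).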

How the data were processed

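RNA of sorted cMSCs was measured on 8 Agilent SurePrint G3 mouse arrays with 1 colour, 4 young and 4 aged pools, grouped by the sample labels. The authors deposited the scanner output, extracted with Agilent Feature Extraction 10.10.1.1 per the submitters' processing notes, whose processed signal is a background-subtracted intensity with no normalization between arrays. They also deposited a quantile-normalized table of log2 values, used as an alternative. Control and outlier spots were left out, the log2 of the array's 75th percentile was subtracted from each log2 intensity, and a probe was kept where every array of the young group, or every array of the aged group, had it well above background. Of the 101 member probes 87 were kept, 17 members had a single probe, and the brightest kept probe stood for a gene. The background subtraction bears most on dim probes, where background is a large part of the intensity.

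The fit used lmFit and eBayes of limma 3.58.1 (R 4.3.3) with no covariate, Benjamini-Hochberg adjustment over 20076 genes and an adjusted p under 0.05 as the threshold, and its code was tested on simulated data. The p values measure the spread between pools. Other software was pandas 2.3.3 and numpy 2.4.6. Probes were named through RefSeq accessions of GRCm38.p6 or current symbols, and positions of probes come from the array files (mm9). No mm9 annotation was used here, so exon or UTR is not given. Promoters are from RefSeq. All 8 arrays shared 1 slide, as 2 rows of 4. Alternatives were quantile normalization, median scaling, normexp with an offset of 50, no filter and a filter over all 8 arrays, the mean of probes, blocks for pool number, pool code and slide row, trend and robust options, array weights, the authors' table and leaving out each pool. Values in each pool are given for members that passed, for members that met the thresholds of the study, and for those the study itself showed, with others added after their values were seen. The members and gene lists were chosen with earlier results of these data known.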

Additional observations from a re-analysis of the deposited data

Results flagged for a closer look

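In 5 cases 1 pool of a group of 4 lay far from the other 3, by a rule that chance alone meets in about 1 group in 20. Over the 47 members tested there were 2 groups each. Nfkbib was at 1.72 in young replicate 3, beside 1.30 to 1.34 in the other young pools, and at 1.75 in aged replicate 4, beside 1.32 to 1.38 in the other aged pools. Tlr4 was at 0.51 in young replicate 3, beside 0.75 to 0.79 in the other young pools. Irak3 was at 1.83 in aged replicate 4, beside 1.51 to 1.55 in the other aged pools, all of which were above the young pools. Casp1 was at -0.10 in aged replicate 1, beside 0.19 to 0.23 in the other aged pools, and this pool was still above the highest young pool at -0.36.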

How the results depend on the processing

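The count of 5 members higher in aged cMSCs was 4 to 6 with quantile normalization, median scaling, normexp, the filter over all 8 arrays, the mean of probes, the pool code or slide row as a block, array weights and the authors' table, 2 with no filter on dim probes, 8 with limma's trend and robust options (Irak3, Relb and Tnip1 were added) and 2 to 4 with a pool left out. The genes behind this count were not always the same. Tlr2 did not pass in 15 of the 20 alternatives, and with quantile normalization Tnip1 passed in its place. No member was lower in any alternative. Among other TLR pathway genes the count of 2 was 1 with median scaling or the mean of probes, 0 with no filter or the pool code as a block, and 0 to 1 with a pool left out. Among other inflammasome genes the count of 4 was 2 with no filter or the pool code as a block, and 2 to 3 with a pool left out. Among other NF-κB pathway genes 1 was lower with the trend and robust options and 1 with array weights, against 0. The difference of Nfkb1 turned to 0.022 with the mean of probes, and that of Irak2 ranged from -0.081 to 0.20 with a pool left out, below 0 without young replicate 4 and, at -0.045, without aged replicate 4, and was 0.47 with the mean of probes, and none of these passed. Nod2 passed with array weights (adjusted p = 0.0468). The cause of these changes was not tested.

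With the pool number as a replicate block, which leaves the 3 numbers that both groups share, 0 members passed, 0 other TLR pathway genes, 0 other inflammasome genes, and 0 NF-κB target genes in either direction, and over all genes 14 were higher and 2 lower. The deviations of same-numbered pools from their group means correlated at 0.18, -0.17 and -0.27 for numbers 2, 3 and 4. Pools of different numbers correlated at -0.25 to 0.33, so these values cannot show whether pools were handled in pairs.

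The signal over background limits Tlr1, Tlr5, Nlrp3 and Nlrc4, which were not tested. The Naip2 difference was 0.70 and the Nod2 difference 0.25 with normexp background correction. Nfkbie, Casp1, Tlr2 and Naip2 each rest on 1 probe.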
